A study of Rattus norvegicus with 17 samples.

Results

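The genes described here are those that encode the proteins of the cytosolic ribosome, measured by RNA sequencing in the hippocampus of adolescent rats. They were taken from the table of counted fragments by symbol: Rpl or Rps followed by a number, with Rpsa, Rplp0, Rplp1 and Rplp2, without pseudogene symbols and without the S6 kinases, and with a mean count of 10 or more over all 17 libraries. Of 34322 genes in the table, 101 fitted the symbol pattern, 14 of these lay under the minimum, and 87 were members. All rats were Long-Evans offspring taken at 36 to 38 days of age, and each diet group came from 1 litter. Ethanol (ET) dams drank a liquid diet with 6.7% ethanol from gestational day 0 to 20. Pair-fed (PF) dams received the same amount of a liquid diet without ethanol over those days, and ad libitum (AD) dams ate chow. The groups held 5 ET, 6 PF and 6 AD rats of both sexes, mostly left hippocampi. Because litter and diet coincide, their parts in any difference cannot be told apart, and p-values measure the spread between littermates.

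The cytosolic ribosome is built from a small subunit, which reads the messenger RNA, and a large subunit, which joins amino acids. The messenger RNAs of its proteins begin with a run of pyrimidines (the terminal oligopyrimidine or TOP motif) through which mTOR signalling, acting by Larp1, controls their translation as a group. In neurons, ribosomes and ribosomal protein messages are also carried into dendrites and axons, where local protein synthesis takes part in synaptic plasticity.

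A promoter sequence from RefSeq for the rat assembly GRCr8, which is not the assembly the reads were mapped to, was matched by symbol to 64 of the 87 members. A C followed by 5 or more bases that are C or T, on the strand of the gene and beginning within 5 bases of the annotated start site, was present in 32 of the 64 (50%). The run was present in 11 of 18 small subunit members (61.1%), in 20 of 36 large subunit members (55.6%) and in 1 of 10 other members, against 9.42% of the 10881 genes with a mean count of 10 or more and a promoter, and 9.91% of all 33469 promoters. Of 58 promoters of mitochondrial ribosomal proteins, 6 (10.3%) held it. Each run was counted from a C within 5 bases of the start site, and pyrimidines before it, as in Rpl35 and Rps24, were left out. So counted, runs were 6 to 21 bases long, with a median of 10.

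The windows below reach from 10 bases before the start site to 20 bases from it, with the run, so counted, in capitals. They show members described below and Rps23, which held the longest run so counted. No promoter was matched for Rpl30 and Rps29. Those of Rplp0, Rps24, Rps7, Rpl35 and Rps23 held the run (Rplp0 at chr12:46718371-46718400, minus strand, Rps24 at chr16:96507-96536, plus strand, Rps7 at chr6:50999426-50999455, minus strand, Rpl35 at chr3:43165902-43165931, minus strand, and Rps23 at chr2:23814507-23814536, plus strand). Those of Rps6, Rpl24 and Rps19bp1 did not (Rps6 at chr5:106420521-106420550, Rpl24 at chr11:58128386-58128415 and Rps19bp1 at chr7:113693004-113693033, all on the minus strand). No match says only that these letters are not in this window of the annotation.
Rplp0: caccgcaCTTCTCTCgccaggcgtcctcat
Rps24: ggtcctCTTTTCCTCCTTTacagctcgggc
Rps7: agagctgtgtCTCTTTCTaagccggcactc
Rpl35: cttcctCTTTCTCTCgaaccgggcggcctc
Rps23: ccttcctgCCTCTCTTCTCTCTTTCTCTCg
Rps6: ctcctaggcggtcggctgtgtcaagatgaa
Rpl24: tagggaggagattctctaccctataaggtg
Rps19bp1: tgtgggcggggcttggcagcatgtcggcgg

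The label was checked against a list of 79 cytosolic ribosomal protein symbols. Of these, 70 were members (26 of the small and 44 of the large subunit), 3 were under the minimum, 4 were not among the symbols of the table (Rpl35a, Rpl37a, Rps9 and Rps19), and 2, such as Fau, have symbols outside the pattern. The other 17 members were paralogs and look-alike symbols, such as Rpl22l1, Rpl36al, Rps27l and Rps4y2. The gene table of GRCr8 lists Rps10l1 as a pseudogene, although its symbol does not say so, and gives Rps9 and Rps9l1 as synonyms. One of these 17 members, Rps19bp1, binds a ribosomal protein and is not itself a part of the ribosome.

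Fragments per member varied widely. Mean counts over the 17 libraries ran from 10.2 in Rps12l3 to 2280.7 in Rpl3, a ratio of 224, with a median of 141 against 285 for the 15911 genes with a mean of 10 or more. Only 8 members reached 1000, among them Rpl3, Rpl4, Rplp0, Rpl41, Rpsa and Rps16. A further 12 lay between 500 and 1000, 34 between 100 and 500, and 33 under 100. The 5 members with most fragments held 31.9% of all member fragments. Just inside the minimum were Rps12l3, Rpl32 (10.5), Rps13 (10.5) and Rpl38 (10.8), and just outside it were Rpl39l (9.94) and Rps17l (9.1). Core proteins were among the symbols under the minimum, with 3.25 fragments for Rps28, 5.22 for Rps14 and 6.18 for the X-linked Rps4x. The reads were aligned with a tool that does not split them across introns, ribosomal protein genes have many near-identical copies in the genome, and alignments of low mapping quality were not counted. How far each of these set a count was not tested, and no lengths were at hand, so the counts are not levels that can be compared between genes.

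**Figure D1:**
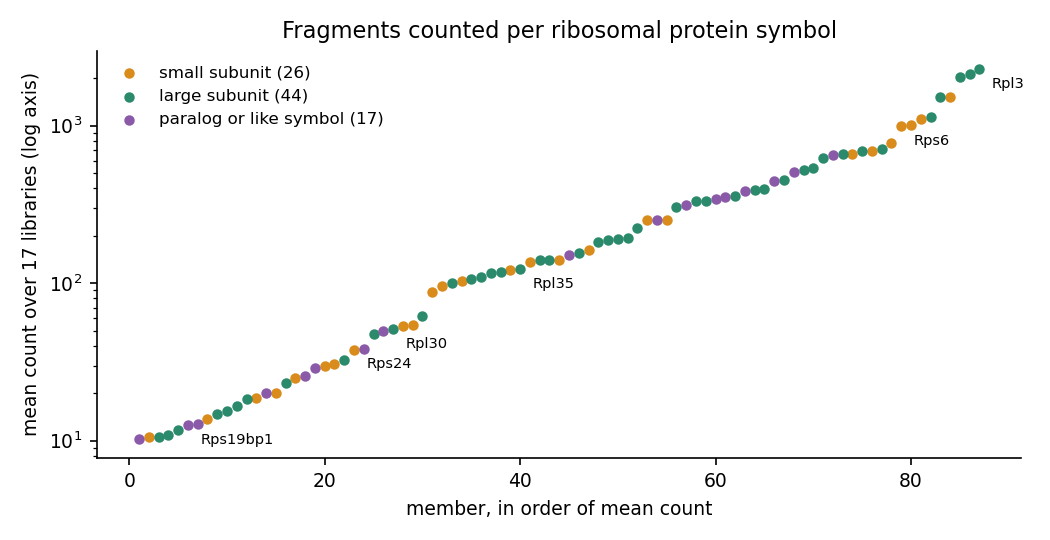
Mean count of each of the 87 members over 17 libraries on a log axis, in order, coloured by subunit. The means span 10.2 to 2280.7, and small and large subunit symbols lie along the whole range, while the paralog and like symbols stay under 1000.

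Some facts of the whole series bear on the members. Depth was 10853947 to 17498392 fragments per library, with a median of 13538433. The 10 listed hippocampal neuron genes were all expressed. Choroid plexus markers set 3 libraries apart (PF animal 11f6, AD replicate 4 and ET replicate 2), with sums of 128492.2 to 150143.2 normalized counts against at most 23327.7 elsewhere, and the study's final analysis did not use them. The tests below use the other 14 libraries (4 ET, 5 PF and 5 AD) and the descriptions use all 17 where stated. By the Y-linked genes Eif2s3y, Kdm5d and Uty, 2 of 6 AD libraries went against their sex label, and 0 of the 11 ET and PF libraries did. The PF libraries also differed in what was counted at all: 39 genes were listed at 0 in every ET and AD library and at 5 or more in every PF library, and 0 genes showed the reverse. None of the 87 members was among the 39.

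The share of all counted fragments that fell in the members overlapped between the 3 diets. In bulk tissue, fewer cells of a type and less RNA per cell cannot be told apart. The share was 0.183% to 0.261% in ET (median 0.239%, n = 5), 0.189% to 0.246% in PF (median 0.222%, n = 6) and 0.21% to 0.25% in AD (median 0.218%, n = 6). ET held both the highest library (replicate 1) and the lowest (replicate 3). The small subunit took 0.0502% to 0.0742% and the large subunit 0.109% to 0.154% of a library, against 0.161% to 0.217% for the 76 mitochondrial ribosomal proteins. ET replicate 3 and PF replicate 3 were the lowest of their groups for both subunits.

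**Figure D2:**
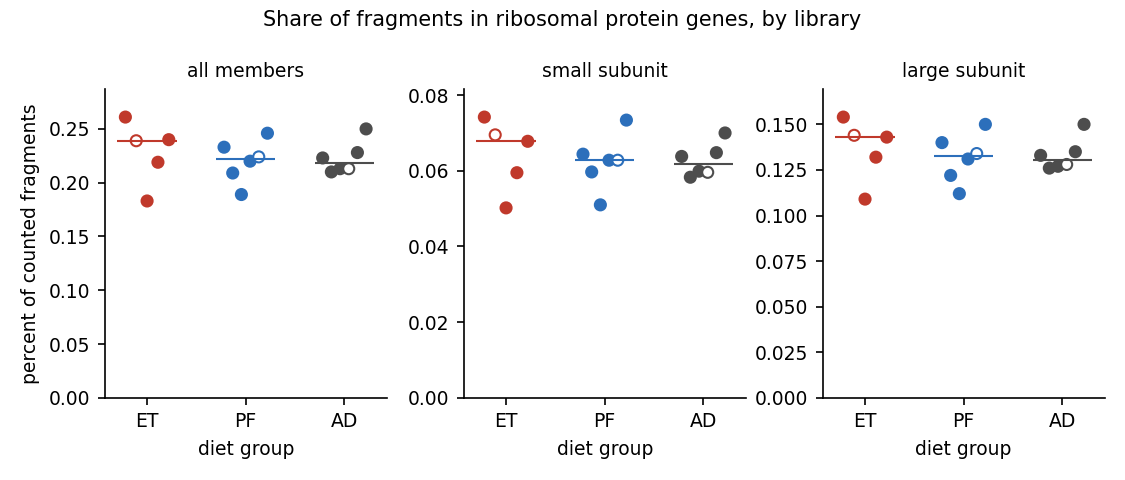
Percent of counted fragments in all members, in small subunit members and in large subunit members, for each library by diet (points) with the group median of all libraries (line); open points are the 3 libraries left out of the tests. The ranges of the 3 diets overlap in every panel, and ET replicate 3, at 0.183% of fragments for all members, is the lowest point.

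One library, PF replicate 6, a right hippocampus of a male, stood apart from the others of its diet in many members. With 1 added to each normalized count (a count scaled by TMM to the mean effective library size), 12 of 87 members were more than 1.5 times the median of the other 5 PF libraries and 18 were below that median by the same factor, or 13.8% and 20.7% of members. Among the 15911 genes with a mean of 10 or more, these shares were 1.86% and 4.7%. In the other 16 libraries the members past the factor numbered at most 3 above and 6 below. This library, and the members named for their values in it, were chosen after those values were seen.

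Rps24, a small subunit protein, had 159 normalized counts in PF replicate 6 and 18.4 to 39.5 in the other PF libraries, 6.1 times their median. Rps29, also of the small subunit, had 451 against 89.7 to 118, a ratio of 4.17. Rpl24, of the large subunit, had 335 against 74.4 to 96.9, a ratio of 3.75. In all 3 genes PF replicate 6 lay above every other library of the series, and ET replicate 2 was the second highest, with 69.4 for Rps24, 203 for Rps29 and 174 for Rpl24. Rps7 (322 against 107 to 130), Rps26 (64.6 against 24.7 to 32.1) and Rpl11 (612 against 236 to 324), which binds Mdm2 in ribosomal stress, were also at least 2.08 times the PF median in this library.

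Other members were low in the same library. Rplp1, an acidic stalk protein that recruits elongation factors, had 394 in PF replicate 6 and 548 to 715 in the other PF libraries, while its partner Rplp2 was high (215 against 99.9 to 148). Rpl22 had 17.9 against 31.5 to 47.8, Rpl37 had 119 against 190 to 223, and Rps15al4 had 277 against 418 to 584. In all, 34 members (39.1%, against 22.9% of expressed genes) were above every other PF library here, and 33 (37.9%, against 21% of genes) were below every other PF library. By the pyrimidine run, 6 of 32 members with it and 5 of 32 without it were past 1.5 times the median, and 5 and 7 were low by that factor. The summed share of members in this library was 0.246%, the highest of PF.

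**Figure D3:**
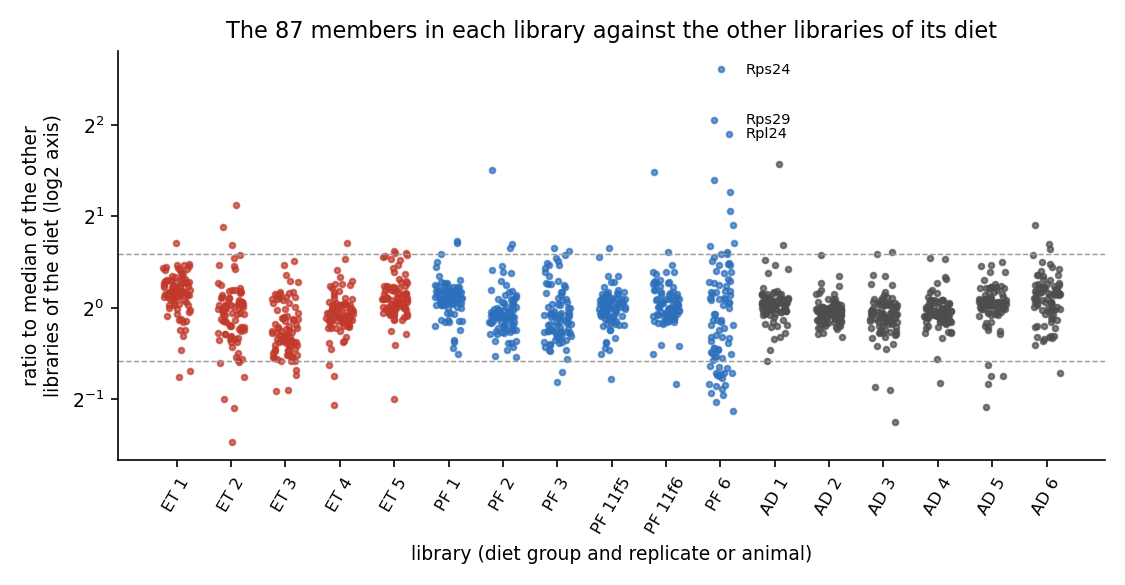
Ratio of each member to the median of the other libraries of the same diet, with 1 added to both counts, for each of the 17 libraries on a log2 axis; dashed lines mark 1.5 times and its inverse. The points of PF replicate 6 spread widest, up to 6.1 for Rps24, 4.17 for Rps29 and 3.75 for Rpl24.

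The spread of members within diets was larger than that of other genes. The SD of log2(CPM + 1) within diets over the 14 libraries had a median of 0.18 over the 87 members and 0.14 over 16068 genes tested, and 0.18 against 0.12 among those with a mean count of 100 or more. Rps24 (0.61), Rps29 (0.55) and Rpl10l (0.53) varied most. Without PF replicate 6 the medians were 0.15 and 0.13, Rps24 fell to 0.23 and Rps29 to 0.16, and Rpl10l stayed at 0.55.

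The main comparison asked how prenatal ethanol changed expression against the same diet without ethanol. Most members differed little between ET and PF: the median log2 fold change was 0.07 (0.01 over all genes tested), 57 members were above 0 and 30 below, and 64 of 87 lay within 0.2 of 0. By edgeR's quasi-likelihood test with Benjamini-Hochberg adjustment at 0.05, 1 member rose in ET (Rpl30) against 0.541% of all 16068 genes tested, and 2 fell (Rpl35 and Rps19bp1) against 3.59%. In both directions together, 3 of 87 members (3.45%) and 4.13% of genes were called. The members' share lay near that of all genes. Rps19bp1 met the minimum mean count of 10 only through its PF values, which enter both its selection and its call. Of the members, 0 passed the study's own threshold, an adjusted p under 0.01 with a log2 fold change beyond 1.5 (2.17% of genes did). At an unadjusted p under 0.05 there were 3 higher members (4.72% of genes) and 2 lower (7.21%), and Rps27 (0.24) and Rpl41 (0.21) were the higher ones besides Rpl30, with adjusted p of 0.261 and 0.301. No member had every ET library above every PF library (1.96% of genes), and 2 had every ET library below every PF library (4.86% of genes). In either direction, 6.82% of genes did not overlap. For 44 members the 95% confidence interval lay within 0.5 of 0 on the log2 scale and for 79 within 1. Oligodendrocyte markers moved with the contrast, with summed normalized counts of 271827.9 to 350122.7 in ET and 197560.2 to 270568.6 in PF, and 5 of 6 markers were higher at an unadjusted p under 0.05. Thalamus markers had a median log2 fold change of 0.51 with 0 of 7 tested called and 2 higher at an unadjusted p under 0.05, and sums of 1912.9 to 3340.1 in ET and 1548.5 to 2019.7 in PF. The part of these markers in the member values was not tested.

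Between ET and AD no member passed the test (0 of 86, against 0.0127% of 15749 genes). By the study's threshold 0 members and 0.0127% of genes were called. At an unadjusted p under 0.05 there were 4 members, all higher in ET (1.59% of genes were higher and 1.15% lower): Rpl30, Rpl17 (0.57), Rpl23 (0.16) and Rps15al4 (0.15). DESeq2 called Rpl30 alone (adjusted p = 0.0103). Rpl30 was also the single member whose groups did not overlap (0.724% of genes were higher without overlap, 0.476% lower and 1.2% either). The median log2 fold change was 0.01 and 77 of 86 members lay within 0.2 of 0, with 71 confidence intervals inside 0.5. Choroid plexus markers had a median log2 fold change of 1.25, with 4 of 9 tested higher at an unadjusted p under 0.05 and sums of 4320.1 to 20998.8 in ET and 2839.8 to 5604.4 in AD, and their part in the result was not tested.

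Between PF and AD, the 2 control groups, 2 of 86 members rose in PF (Rpl35 and Rps19bp1, against 4.32% of 15960 genes) and 0 fell (against 0.846%), or 2.33% of members against 5.17% of genes. At an unadjusted p under 0.05 there were 3 higher (9.66% of genes), with Rps18 as the third, and 3 lower (6.77%), namely Rps27 (-0.24), Rps10l1 (-0.29) and Rpl29 (-0.21), and DESeq2 called 0 lower. By the study's threshold 0 members and 2.05% of genes were called. With left hippocampi only, 0 members rose (4.39% of genes in that fit) and 2 fell (1.16% of genes), Rpl28 (-0.39) and Rpl14 (-0.47). Beside these values, oligodendrocyte markers had a median log2 fold change of -0.29 (1 of 6 fell), thalamus markers -0.24 and choroid plexus markers 1.12 (summed normalized counts of 3326.2 to 23327.7 in PF and 2839.8 to 5604.4 in AD), and their part in the result was not tested. The member median was -0.02. The 3 comparisons share samples, so the PF values of Rpl35 and Rps19bp1 enter both of their calls. The PF values of Rps19bp1 also enter its selection, since it met the minimum mean count of 10 only through PF. Without PF replicate 6, Rpl28 was called as well, at a log2 fold change of -0.32 (adjusted p = 0.0158 by the same test). Over the tested libraries its neighbour Ube2s had 330 ± 19.6 normalized counts (SD) in ET, 229 ± 36.1 in PF and 332 ± 18.3 in AD. The part of Ube2s in the Rpl28 values was not tested.

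**Figure D4:**
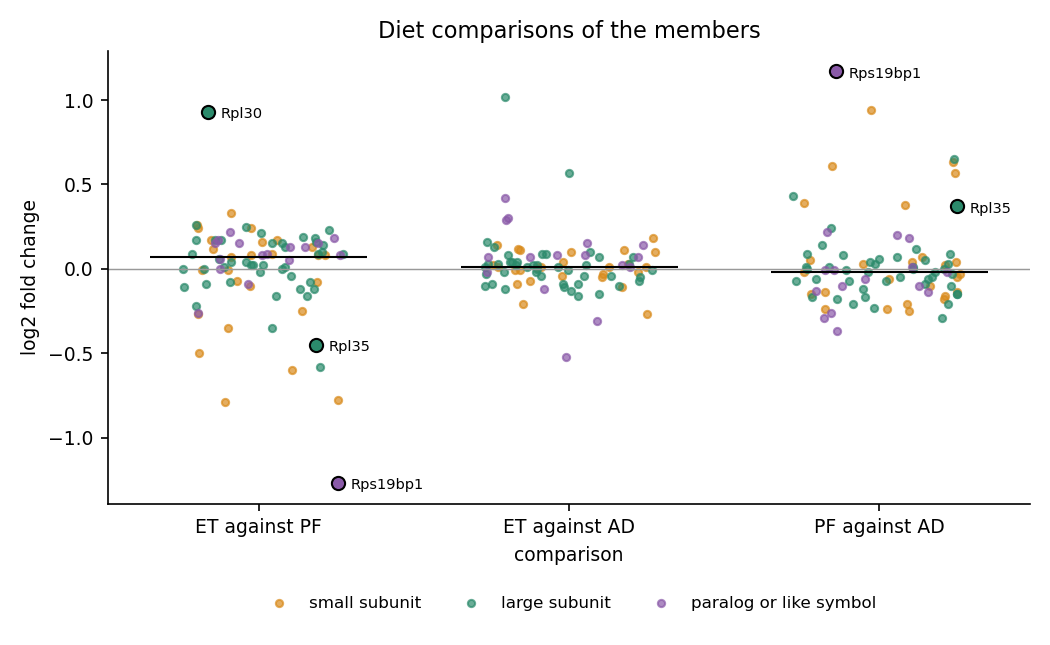
Log2 fold change of each member in the 3 diet comparisons, coloured by subunit, with the median as a line; large outlined points passed an adjusted p of 0.05. The medians are 0.07, 0.01 and -0.02, and the outlined points are Rpl30, Rpl35 and Rps19bp1 in ET against PF and Rpl35 and Rps19bp1 in PF against AD.

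Rpl30 encodes a large subunit protein at the face between the subunits. The 4 ET libraries had 51.6 (replicate 1), 94.8, 96.2 and 80.2 normalized counts. The 5 PF libraries had 45.2, 42.3, 52.3, 45.5 and 27.1, and the 5 AD libraries 42.5, 36.5, 43.2, 43 and 33.9. ET replicates 3, 4 and 5 lay above every other library of the series, while ET replicate 1 lay inside the PF range and above AD. The log2 fold change was 0.93 (SE 0.21, adjusted p = 0.0367) against PF and 1.02 (SE 0.18, adjusted p = 0.272) against AD. The ET library left out, replicate 2, had 40.4. With all 17 libraries the change against PF was 0.79 and did not pass, and the call stood in 2 of the 9 fits that left out 1 library, those without ET replicate 1 (1.09, adjusted p = 0.00481) and without PF replicate 3 (1.02). In the other 7 it was 0.80 to 0.96. It did not pass with left hippocampi only (0.79, adjusted p = 0.154) or with sex as a covariate (0.93, adjusted p = 0.0648). Against AD, the fit without ET replicate 1 gave 1.18 and passed (adjusted p = 0.0103). In GRCr8, Rpl30 overlaps LOC120093944, which is not listed as protein-coding, and the part of this overlap was not tested. Erich5, a neighbour of Rpl30, had 124 ± 42.8 (SD, n = 4) in ET and 91.4 ± 27.8 (n = 5) in PF and was not called (adjusted p = 0.624).

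Rpl35 encodes a large subunit protein near the exit of the peptide tunnel. ET libraries had 119, 85.9, 104 and 119, PF libraries 165, 145, 133, 146 and 140, and AD libraries 122, 109, 98.4, 120 and 118 normalized counts. PF lay above both other diets with no overlap (as did 4.97% of genes against AD, while 1.69% lay below AD and 6.66% did not overlap in either direction), and ET and AD overlapped. The log2 fold change was -0.45 in ET against PF (SE 0.11, adjusted p = 0.0497), 0.37 in PF against AD (SE 0.08, adjusted p = 0.0194) and -0.09 in ET against AD. The first call stood in 1 of 9 fits without 1 library, the one without ET replicate 1 (-0.51, adjusted p = 0.0402). The second stood in 8 of 10, and was lost without PF replicate 1 (0.32) and without AD replicate 2 (0.35). With left hippocampi only, neither passed (-0.41 and 0.28), and the first did not pass with library totals or with sex as a covariate (-0.46 in each).

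The annotation of GRCr8 places Rpl35 over Wdr38, and Wdr38 differed by more. It had 18.5 ± 7.54 normalized counts in ET, 55.2 ± 9.26 in PF and 10.9 ± 6.33 in AD (SD), with log2 fold changes of -1.58 (SE 0.25, adjusted p = 0.00264) and 2.36 (SE 0.28, adjusted p = 0.000113) in the 2 comparisons with PF. The neighbour Arpc5l, an actin regulator, moved the same way (-0.86 and 1.03, adjusted p of 0.00204 and 0.000129). In the libraries left out Wdr38 was at 72.6 (ET), 120 (PF) and 58.5 (AD), and Rpl35 at 85.9, 156 and 124. Among the 577 genes that fell in ET against PF, 441 had a unique symbol in the gene table of GRCr8 and 85% of these overlapped another gene, against 45.6% of genes tested and 53.6% of members. The authors let reads count for several features, and the part of this setting in the Rpl35 values was not tested. The 13 members that overlap a protein-coding gene had a median log2 fold change of 0.15 in ET against PF, with 1 called (Rpl35), and the other 74 had 0.04, with 2 called. In PF against AD the medians were -0.13 and -0.01, with 1 called in each.

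Rps19bp1 encodes a nucleolar protein that binds Rps19 and also enhances the deacetylase Sirt1. It was counted at low depth, with a mean of 12.6. Over the tested libraries its mean normalized count was 8.16 in ET, 19.9 in PF and 8.75 in AD. It met the minimum mean count of 10 only through PF, so its selection and its calls rest on the same values. ET libraries had 8.77, 5.18, 7.75 and 11 normalized counts, PF libraries 18.4, 19.1, 22.9, 18.8 and 20.5, and AD libraries 7.35, 9.37, 8.7, 4.82 and 13.5. PF lay above the other diets with no overlap, and the left out libraries lay with their own diets (6.46, 21.7 and 10.1). Given the 39 genes counted in PF alone, whether the PF libraries were counted in the same way as the others was not tested, which bears on Rps19bp1 and Rpl35. The log2 fold change was -1.27 in ET against PF (SE 0.19, adjusted p = 0.00183) and 1.17 in PF against AD (SE 0.21, adjusted p = 0.00492), and both calls stood in every fit without 1 library. With left hippocampi only, the call of ET against PF stood, and PF against AD (1.19) did not pass. It was filtered out of ET against AD for low counts. It overlaps no gene in GRCr8, and its neighbours Atf4 and Cacna1i were not called.

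**Figure D5:**
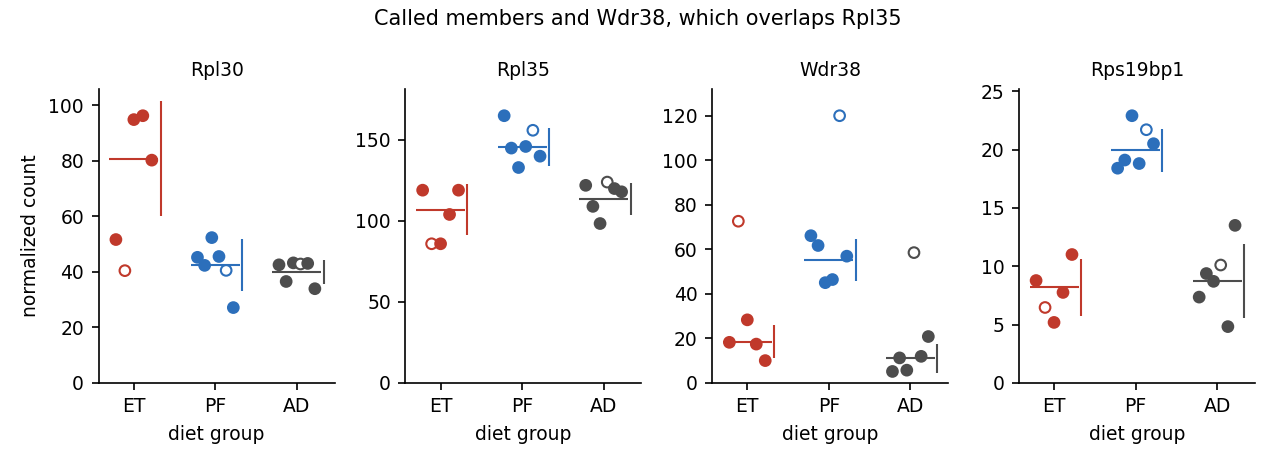
Normalized counts of Rpl30, Rpl35, Wdr38 and Rps19bp1 in each library by diet, with the mean (line) and SD (vertical bar) of the 14 libraries tested; open points are the 3 libraries left out. In Rpl35, Wdr38 and Rps19bp1 the tested PF points lie above all tested ET and AD points, and in Rpl30 the 3 highest points, 80.2 to 96.2, are ET.

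The stalk and the best known marks of ribosomal protein control did not pass the test in any diet comparison. Rplp0, the base of the stalk, had 2001.0 ± 253 in ET, 1996.2 ± 302 in PF and 2127.7 ± 138 in AD (SD, n = 4, 5 and 5), with a log2 fold change of 0.00 between ET and PF and a confidence interval of -0.26 to 0.26. Rplp1 had 671 ± 71.3, 596 ± 128 and 734 ± 94.1, and Rplp2 had 135 ± 25.1, 144 ± 43.4 and 146 ± 24. Rps6, the substrate of S6 kinase, had 1015.0 ± 217, 959 ± 196 and 998 ± 74, and its interval between ET and PF was -0.32 to 0.48. Rpsa, which is also a laminin receptor, differed by 0.07 between ET and PF (interval -0.15 to 0.29).

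Large apparent differences of Rps24 and Rps29 rested on the library named above. Between ET and PF their log2 fold changes were -0.79 (SE 0.62) and -0.50 (SE 0.47), and without PF replicate 6 they were 0.18 and 0.22. Neither passed the test in any of these fits (adjusted p of 0.773 and 0.83 with the library, 0.867 and 0.598 without it). Between PF and AD they went from 0.94 and 0.63 to -0.03 and -0.10.

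The paralog pairs named here had overlapping ratios across diets. Rpl22l1 was counted above Rpl22 by a median log2 ratio of 2.90 in ET, 2.94 in PF and 3.06 in AD. Rpl36al was above Rpl36a by 4.59, 4.23 and 4.40. Rps27l, a target of p53, was below Rps27 by medians of -2.46, -2.35 and -2.41. Rpl7l1 and Rpl7 were near 1 to 1 in fragments, with medians of 0.09, 0.08 and 0.07. These ratios of fragments also depend on how many reads of each copy could be placed, so they are read across diets only.

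Comparing males with females in ET and PF with diet as a covariate, 0 of 87 members passed edgeR's test, against 0.0436% of 16068 genes. DESeq2 also called 0. At an unadjusted p under 0.05 there were 5 members (1.87% of genes). The smallest p was that of Rpl10l, a paralog of the X-linked Rpl10, which was lower in males by a log2 fold change of -1.02 (SE 0.20, unadjusted p = 0.000509, adjusted p = 0.744). Females had 31.7 and 25.3 normalized counts in ET and 34.9, 21 and 33.6 in PF, and males 11.9 and 12.6 in ET and 15.6 and 17.2 in PF. The left out males, in libraries with high choroid plexus markers, had 26.6 (ET) and 27.3 (PF), inside the range of the females. Choroid plexus markers had a median log2 fold change of -1.40 in males against females, below 0 in 10 of 10, with 0 called and 2 lower at an unadjusted p under 0.05, and their part in the result was not tested. Rps4y2, from the Rps4y family, was 0.53 higher in males (SE 0.19, adjusted p = 1). GRCr8 places Rps4y2 on chromosome 4, not on the Y chromosome. It was counted in females too, at 11.8 and 15.2 in ET and 18.7, 15.9 and 15.2 in PF. For the interaction of sex and diet, 0 members and 0 of 16484 genes (0%) passed, with 4 members at an unadjusted p under 0.05 (1.4% of genes), Rps13, Rpl22, Rpl22l2 and Rpl31. DESeq2 was not run on the interaction.

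The lists of genes that act with the ribosomal proteins were small, and their counts of calls are read against the shares of all genes, 3.59% lower in ET against PF and 4.32% higher in PF against AD. Fau and Rack1, ribosomal proteins outside the symbol pattern, had log2 fold changes of -0.09 and 0.07 between ET and PF, and neither passed in any comparison. Of 17 translation factors and other TOP genes tested, 0 rose and 1 fell in ET against PF, and 1 rose and 0 fell in PF against AD, with a median of 0.01 and -0.02. The gene was Eif3k, a subunit of an initiation factor, in both (-0.30, SE 0.07, adjusted p = 0.036, and 0.38, SE 0.06, adjusted p = 0.00141). Of 30 ribosome biogenesis genes, 1 fell in ET against PF and 1 rose in PF against AD, and both were Tsr1, which matures the small subunit (-0.42, SE 0.10, adjusted p = 0.0393, and 0.41, SE 0.05, adjusted p = 0.000256). Of 20 genes listed for control of ribosomal protein translation, such as Mtor, Rps6kb1, Larp1 and Myc, 0 passed in any comparison by edgeR's test. At an unadjusted p under 0.05 there were 0 between ET and PF and 0 between ET and AD. Between PF and AD there was 1, lower in PF. Against AD, 0 genes of these 3 lists passed for ET.

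The mitochondrial ribosomal proteins, which serve a separate ribosome, held symbols counted in PF alone. Of 76 tested between ET and PF, 0 rose and 3 fell (Mrpl28, Mrpl47 and Mrpl53), near the 3.59% of all genes that fell. Mrpl28 was listed at 0 in every ET and AD library and at 70 to 100 normalized counts in the 6 PF libraries, and Mrpl53 at 0 and at 49.7 to 66.9, so no fold change is given. Mrpl47 had 118 ± 16.4 in ET, 167 ± 8.62 in PF and 108 ± 4.34 in AD. Ribosomal RNA symbols split the same way. Rn45s, the ribosomal RNA precursor, had 3.23 to 29.3 in ET, 301 to 680 in PF and 28.9 to 118 in AD, and Rn18s was listed at 0 in ET and AD and at 290 to 632 in PF. Mrpl28, Mrpl53, Rn45s and Rn18s were named after their values were seen. What part the symbols counted in PF alone have in the member values was not tested.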

How the data were processed

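Hippocampal RNA of 17 rats was sequenced as stranded, paired-end libraries. The authors trimmed reads with fastp, aligned them to mRatBN7.2 with Bowtie2 (2.4.2), kept alignments of mapping quality 10 or more and counted fragments per gene with featureCounts (2.0.1), letting a read count for several features. The strand setting and annotation release are not given in the sources used here. The deposited values are expected counts, the authors' averages of 3 technical replicates (53.3% are whole numbers, within 0.0001), and they were rounded for testing. Confidence intervals come from the fits and include the spread between animals.

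Fits used edgeR (4.0.16, R 4.3.3) with filterByExpr, TMM scaling and the quasi-likelihood test on the 2 groups compared, over all genes, with Benjamini-Hochberg adjustment and a threshold of 0.05. SE is the absolute log2 fold change over the root of F. DESeq2 (1.42.0), other scalings, filters and sample sets were alternatives. Descriptions used Python 3.11.15. The fits were tested on simulated data. The columns of PF animals 11f5 and 11f6 could be tied to the PF group but not to 1 replicate number each, and are named by animal.

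Named genes were members called in any diet comparison or with the smallest p, stalk genes, Rps6, paralogs and the 3 with the largest spread. Listed genes of translation, its control, ribosome biogenesis and mitochondrial ribosomes were named as well. Of 13 mitochondrially encoded symbols, 0 were in the table. Rpl11, Rpl14, Rpl24, Rpl28, Rpl37, Rps2, Rps7 and Rps26 were named after their values were seen. The rule's highest and lowest levels per length were not computed. The members and lists were chosen with earlier results of these data known. Gene overlaps came from RefSeq's gene table for GRCr8, matched by symbol for 84 of 87 members. Values of some genes are not reported here.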

Additional observations from a re-analysis of the deposited data

Results flagged for a closer look

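In 96 groups of 5 or 6 libraries, Dixon's ratio was taken on log values. This is the gap between the most extreme library and its nearest neighbour, divided by the range. It was set against Dixon's critical value, which chance passes in about 1 group of 20. The critical value was passed 6 times, about as often as chance gives. Counts below are not on the log scale. Rps24 and Rps29 were among the genes examined because of their large spread, so their flags are no independent evidence. Rps24 (159 normalized counts, others 18.4 to 39.5) and Rps29 (451, others 89.7 to 118) were high in PF replicate 6. Rplp0 was low in ET replicate 3, at 1623.0 against 2091.4 to 2150.9. Rps6 was low in PF replicate 3, at 613 against 1000.4 to 1084.2. In AD replicate 6, Rpl36a was low (9.64, others 14.7 to 18.7) and Rpl41 was high (1506.7, others 1059.1 to 1147.4).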

How the results depend on the processing

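Between ET and PF, the 1 higher member became 0 with all 17 samples, left hippocampi, sex as a covariate, the study's threshold, or members that overlap no other gene. The 2 lower members became 1 with library totals, left hippocampi, the sex covariate or members without overlap, and 0 at the study's threshold. All genes called higher (87) became 160 with DESeq2, 201 with 17 samples, 46 with left hippocampi, 149 in 1 fit of the 3 diets and 6 at the study's threshold, where 343 were lower. Between ET and AD, DESeq2 called 1 member higher, with 6 genes higher and 5 lower. With 17 samples 2 genes were higher and 4 lower, and in 1 fit of the 3 diets 2 were higher. Between PF and AD, left hippocampi gave 0 members higher and 2 lower, Rpl28 and Rpl14. The study's threshold gave 0 members, 323 genes higher and 4 lower, DESeq2 230 lower, and members without overlap 1 higher. For sex, genes lower (2) became 5 with DESeq2 and 1 at the study's threshold. The cause of these changes was not tested.

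Leaving out 1 library in turn gave 0 to 1 members higher and 1 to 2 lower between ET and PF, with 44 to 115 genes higher and 497 to 568 lower. Between ET and AD it gave 0 to 1 members and 0 to 2 genes higher, and between PF and AD 1 to 2 members higher, 0 to 1 lower and 69 to 306 genes lower (306 without PF replicate 6). For sex, 1 to 4 genes were lower. Replicate numbers do not pair the animals (correlations of same-numbered deviations of -0.01 to 0.64, -0.29 to 0.13 and -0.03 to 0.08). With the replicate block, 0 members were higher and 0 lower between ET and PF (37 genes higher, 322 lower), and 1 member was higher between PF and AD. Log2 fold changes of ET against PF with the block were 0.55 for Rpl30, -0.55 for Rpl35 and -1.51 for Rps19bp1. Without it they were 0.93, -0.45 and -1.27. A block for the sex comparison could not be fitted. The sex covariate used labels that 2 AD libraries go against.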

Other observations

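Rps2, a small subunit protein, had 51.2 normalized counts in PF replicate 2 and 50.4 in PF animal 11f6, and 9.64 to 18.1 in the other 15 libraries. Rpl10l had 72.5 in AD replicate 1 and 10.7 to 34.9 elsewhere. Both were named after their values were seen. Rpl37a-ps1, whose symbol the pattern does not take, had a mean count of 50.9 and reached a count of 168 in 1 PF library.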
